A study of Homo sapiens with 9 samples.

Results

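The comparison described here sets 2 RNA sequencing libraries of NB4 cells against each other, 1 from cells given MC_2580 together with 0.01 uM retinoic acid (RA) and 1 from cells given 1 uM RA alone, both for 24 h. The first is called the combination. The label of MC_2580 gives no dose and says only that it inhibits LSD1, a histone demethylase encoded by KDM1A. The members are the genes of the deposited treatment table in the rows that name these 2 libraries. Of 35856 rows 797 carry a failed status and were dropped, which left 35059. At least 1 FPKM (fragments scaled to transcript length and to the fragments mapped in the library) in 1 of the 2 libraries was reached by 13580, and 9865 of those are protein-coding genes with 1 locus, the set tested here. The series holds 9 libraries in all. The other treatment libraries, 1 each at 24 h, are cells in DMSO, the vehicle, in MC_2580 alone and in 0.01 uM RA alone. A knockout set holds 2 libraries of untreated NB4 cells labelled LSD1 KO and 2 of untreated wild-type (WT) cells, and the labels do not say how many clones the KO libraries came from.

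NB4 is an established cell line of acute promyelocytic leukaemia and carries the PML-RARA fusion, a retinoic acid receptor that holds myeloid genes silent until enough RA binds it. Under RA such cells leave the promyelocyte stage and mature towards granulocytes, with surface integrins, an oxidative burst and new granule contents. LSD1 removes methyl groups from histone H3 and sits in repressor complexes with RCOR1, HDAC1 and the DNA-binding repressors GFI1 and GFI1B, and the title of the series speaks of its role as a scaffold in the response of leukaemia cells to RA. The comparison asks how close a 100 times lower dose of RA with MC_2580 comes to the high dose alone. Since the 2 libraries differ both in MC_2580 and in the dose of RA, the share of each in any difference between them cannot be told apart from this pair.

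With 1 library a side there is no replicate and no p-value for the treatments. A difference is given as log2((FPKM + 1) in the combination / (FPKM + 1) in RA 1 uM), which understates the change of low genes, and a gene counted as higher or lower differs at least 2-fold, a log2 difference of 1. The values of a gene in all 5 treatment libraries are given in the order DMSO, MC_2580, RA 0.01 uM, RA 1 uM, combination. In bulk RNA, fewer cells of a type and less RNA per cell cannot be told apart.

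Between 13050 and 13365 loci reached 1 FPKM in the treatment libraries, and the 10 highest loci held 54.0% to 65.7% of the FPKM sum of a library. The sources used here do not give read totals, and the spacing of low values over 3402 loci put 1.16 times as many reads behind 1 FPKM in RA 1 uM as in the combination. KDM1A, listed as AOF2, stood at 69.9, 66.9, 52.0, 51.0 and 50.8 FPKM across the treatments. In the knockout set it stood at 14.0 and 16.8 FPKM in KO against 49.8 and 66.6 in WT, a log2 difference of -1.84 (SE 0.23, limma adjusted p = 0.0592). The promyelocyte markers MPO, PRTN3, AZU1, CTSG and CD33 were present in every treatment library. MPO (2873 FPKM in the combination and 2454 in RA 1 uM) and CD33 (46.8 and 44.3) were higher in the combination. PRTN3 (454 and 966), AZU1 (82.7 and 98.1) and CTSG (4.65 and 7.01, beside 58.6 in DMSO) were lower. The marker ELANE, neutrophil elastase, was nearly absent, at 0.0263 to 0.128 FPKM in the 5 treatment libraries.

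The combination resembled RA 1 uM more than it resembled the other treatment libraries, and its departures from RA 1 uM were mostly upward. Of the 9865 genes, 332 were at least 2-fold higher in the combination (3.37%) and 47 at least 2-fold lower (0.476%). The median log2 difference was -0.02 and 47.1% of genes lay above 0, so the 2 libraries were centred alike. The median size of the log2 difference was 0.17 against RA 1 uM, 0.20 against RA 0.01 uM, 0.31 against MC_2580 and 0.34 against DMSO. These 4 comparisons share the combination library. Against RA 0.01 uM 457 genes were higher (4.62%) and 36 lower (0.364%), against MC_2580 789 (7.88%) and 331 (3.31%), and against DMSO 941 were higher (9.41%) and 340 lower (3.4%). Over all 13580 loci, which include short RNAs with unstable FPKM, 553 were 2-fold higher (4.07%) and 250 lower (1.84%).

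A 2-fold difference between 2 libraries was as common where no treatment separated them. Between the WT libraries 384 of 9954 genes differed 2-fold (3.86%), and between the KO libraries 347 of 10071 (3.45%), against 3.84% for the combination and RA 1 uM together in both directions. The median size of the log2 difference was 0.30 between the WT and 0.30 between the KO libraries, against 0.17 for this comparison. The differences WT 1 minus WT 2 and KO 1 minus KO 2 moved together (r = 0.86 over 9876 genes). These like pairs thus share a shift that follows the replicate number and are not 2 independent yardsticks. Differences of 4-fold and more were less common between like libraries. At 4-fold the combination and RA 1 uM differed in 65 genes higher and 4 lower (0.699%), the WT libraries in 14 and 1 (0.151%), and the KO libraries also in 14 and 1 (0.149%). At 8-fold there were 21 genes higher and 0 lower between the treatments, 1 and 0 between the WT libraries, and 0 and 1 between the KO libraries. Of the 332 higher genes 287 were also tested in the knockout set, and 55 of these (19.2%) differed 2-fold between the WT or between the KO libraries, against 5.14% of all tested genes. The genes that stood higher in the combination thus include many that also vary between like libraries. At the threshold, MGAM (1.002) and CTSS (1.004) lay just inside on the higher side and GNA12 (0.9995) just outside, while MTSS2 (-1.002) lay just inside and EIF1B (-0.996) just outside on the lower side.

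**Figure D1:**
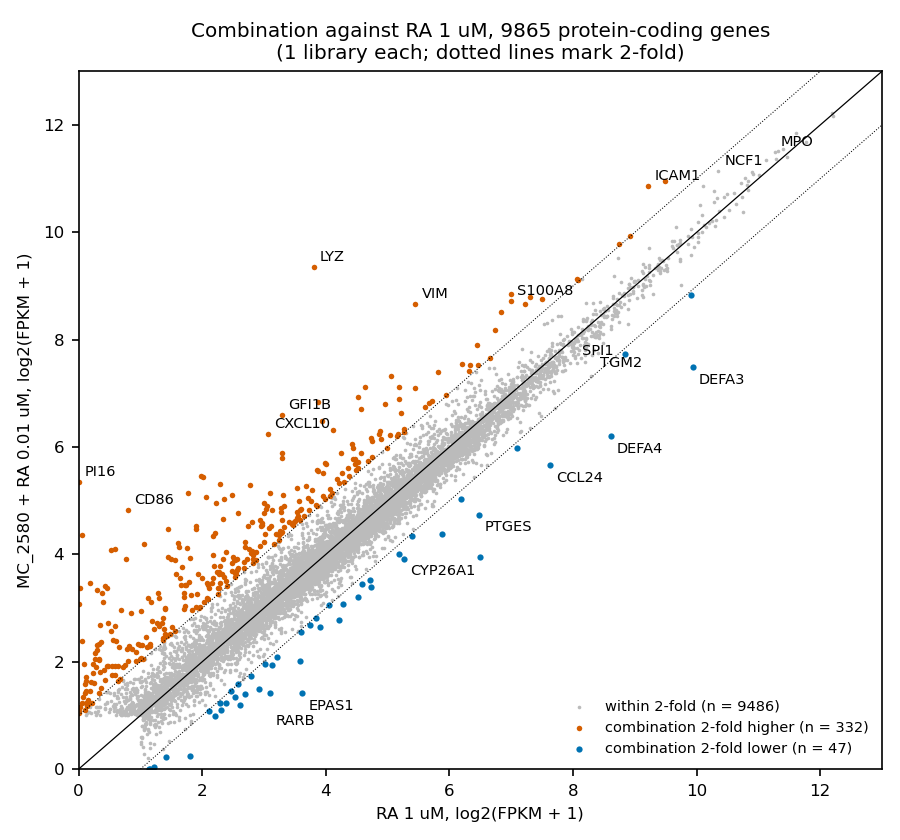
FPKM of 9865 protein-coding genes in RA 1 uM (x axis, log2(FPKM + 1)) and in the combination (y axis, the same scale), 1 library each, with dotted lines at 2-fold. The 332 orange points are 2-fold higher and the 47 blue points 2-fold lower in the combination, and the named points include LYZ, PI16 and CD86 above the diagonal and the defensins DEFA3 and DEFA4 below it.

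The authors' deposited table also marks calls for this pair, from their own test of 1 library against 1. Among the 9865 genes it calls 237 higher (2.4%) and 26 lower (0.264%). Of these calls 84.4% were also 2-fold, and 58.6% of the 2-fold genes were called in the authors' deposited table. All of the 15 genes named next as highest were among its calls, as were 12 of the 15 named as lowest.

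LYZ, PI16, CLEC4A and CD86 led the 15 genes highest in the combination over RA 1 uM, taken from those where 1 of the 2 reached at least 5 FPKM. In 14 of them the combination held the highest of the values, which choosing the genes by that library favours. In all 14 with a value in MC_2580 that library stood above DMSO. Over all tested genes the median log2 difference of MC_2580 against DMSO was -0.02. LYZ, the antibacterial enzyme lysozyme (hg18 chromosome 12, 68028401 to 68034280), stood at 45.3, 289.7, 10.9, 13 and 653 FPKM, a log2 difference of 5.55. Both RA doses alone lay below DMSO for this gene, and MC_2580 above it. PI16, a secreted peptidase inhibitor (chromosome 6, 37030187 to 37040589), was listed at 0 in DMSO and both RA libraries, at 3.66 FPKM in MC_2580 and at 39.6 in the combination. CD86, the costimulatory ligand of antigen-presenting cells (chromosome 3, 123256911 to 123322672), stood at 0.17, 1.93, 0.219, 0.736 and 27.3 FPKM, a log2 difference of 4.03.

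LRRK2, a kinase of myeloid cells, stood at 0.396, 2.92, 1.26, 2.96 and 43.2 FPKM (3.48), so MC_2580 and RA 1 uM gave about the same level and the combination stood far above both. CD48, an adhesion ligand of leukocytes, stood at 10.4, 29.4, 2.34, 3.04 and 42.3 FPKM (3.42), and GLIPR1 at 5.85, 20.1, 0.969, 2.40 and 34.4 (3.38). VIM, the intermediate filament vimentin, stood at 593, 879, 22.2, 42.7 and 404 FPKM (3.21). It is the 1 gene of the 15 in which MC_2580 alone was higher than the combination. LYZ, CD48, GLIPR1 and VIM thus share an order: lower at both RA doses than in DMSO, higher in MC_2580 than in DMSO, and in the combination many times above either RA library. SYTL3, a vesicle transport protein, shows the same order at 1.45, 4.11, 0.551, 0.702 and 14.0 FPKM (3.14).

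A further group of the 15 was near 0 in every treatment library with a value except the combination. HP, haptoglobin, stood at 0.112, 0.365, 0.154, 0.434 and 15.9 FPKM (3.56). S100A12, a calcium-binding protein of granulocytes, was listed at 0 in DMSO and stood at 0.317, 0.223, 0.134 and 10.1 FPKM in the others (3.29). GIMAP4, a GTPase of immune cells, was listed at 0 in DMSO and RA 0.01 uM and stood at 0.31 in MC_2580, 0.0109 in RA 1 uM and 9.33 FPKM in the combination. CLEC4A, a C-type lectin receptor, has no usable value in MC_2580, and stood at 0.427 in DMSO, 0.0907 in RA 0.01 uM, 0.042 in RA 1 uM and 19.5 in the combination (4.30). These 4 genes were under 1 FPKM in every treatment library with a value but the combination. In the knockout set GIMAP4 stood at 3.59 and 3.82 FPKM in KO, and S100A12 at 0.116 and 3.11. HP and CLEC4A stayed under 1 FPKM there. SLC15A3, a lysosomal peptide transporter, came close to that pattern with 0.432, 1.47, 0.297, 0.498 and 16.1 FPKM (3.51).

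The remaining pair of the 15 is made up of GFI1B and CXCL10. GFI1B, a DNA-binding repressor that recruits LSD1 (chromosome 9, 134810753 to 134856895), stood at 1.87, 6.71, 22.9, 8.83 and 95.4 FPKM (3.29), higher than DMSO in each other library. CXCL10, an interferon-inducible chemokine, stood at 1.84, 20.0, 0.897, 7.32 and 74.8 FPKM (3.19). In the WT libraries, which had no treatment, CXCL10 was 12.7 and 1.68 FPKM, so its level differs several-fold between like libraries.

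**Figure D2:**
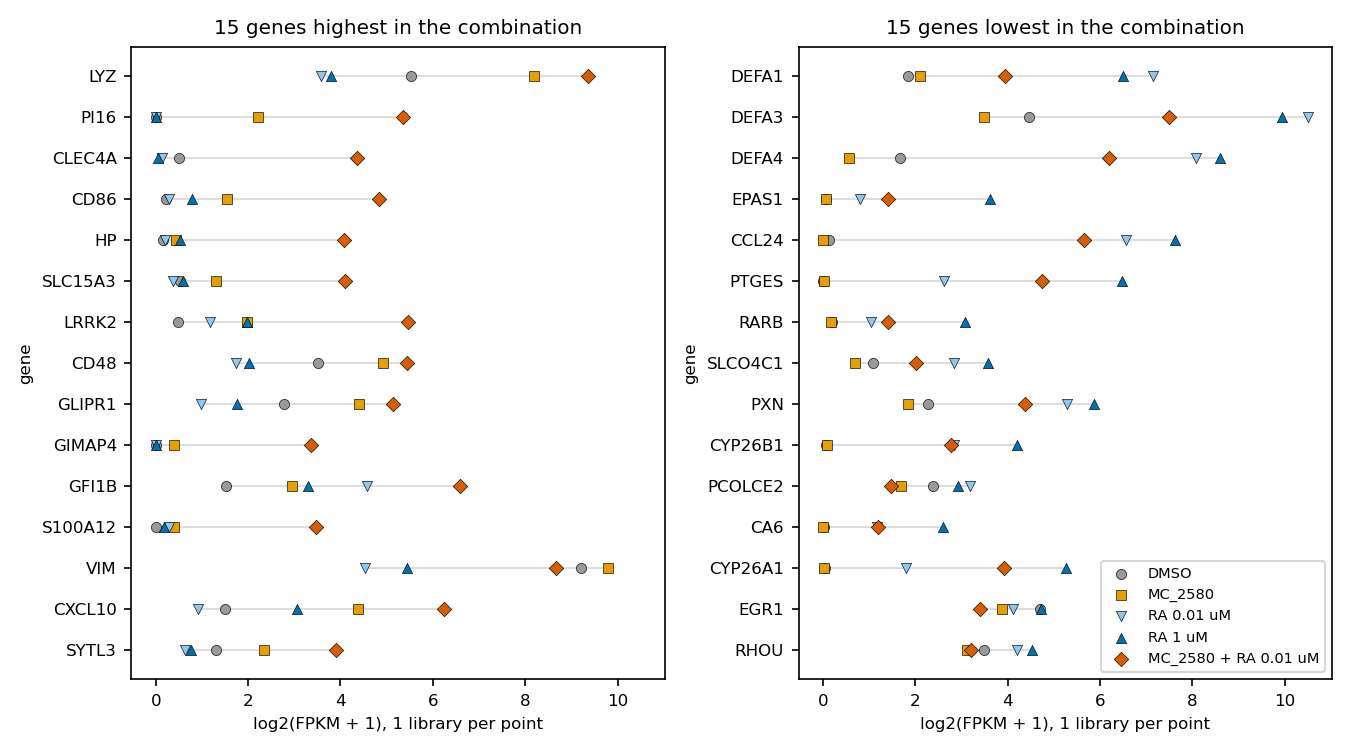
Expression (x axis, log2(FPKM + 1), 1 library per point) of the 15 genes highest (left) and the 15 lowest (right) in the combination against RA 1 uM, in all 5 treatment libraries. On the left the combination (orange diamonds) is the highest point for every gene but VIM, and on the right RA 1 uM lies above the combination for every gene, with RA 0.01 uM above the combination for 10 of the 15.

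The 15 genes lowest in the combination stood above DMSO under RA alone. In 15 of 15 RA 1 uM lay above DMSO, by little for EGR1, and in 14 of 15 RA 0.01 uM did. For 10 of them the combination stood below RA 0.01 uM, the same RA dose without MC_2580. The genes were chosen for a high RA 1 uM and a low combination, which favours the counts on those libraries. RA 0.01 uM and DMSO took no part in the choice, and their median log2 difference over all tested genes was -0.06. The alpha-defensins, antimicrobial peptides of primary granules, led this end. DEFA4 stood at 2.18, 0.492, 271, 389 and 72.7 FPKM, a log2 difference of -2.41. DEFA1 stood at 2.62, 3.29, 142, 89.0 and 14.5 FPKM (-2.54) and DEFA3 at 21.2, 10.2, 1447, 979 and 178 (-2.45). All 3 were lower in the combination than at either RA dose, but DEFA4 was higher at 1 uM than at 0.01 uM and DEFA1 and DEFA3 were lower. DEFA1 and DEFA3 are nearly identical copies, so the split of reads between them is uncertain.

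CCL24, an eosinophil-attracting chemokine (chromosome 7, 75279050 to 75280969), stood at 0.0931, 0, 93.5, 197 and 49.7 FPKM (-1.97). PTGES, a prostaglandin E synthase, was listed at 0 in DMSO and stood at 0.0245, 5.16, 87.8 and 25.7 FPKM in the others (-1.73). PXN, the focal adhesion protein paxillin, stood at 3.86, 2.60, 38, 57.6 and 19.8 FPKM (-1.49). CCL24 and PXN were lower in the combination than at either RA dose, whereas PTGES lay between the doses. EPAS1, a hypoxia-inducible transcription factor, also lay between them, at 0.0566, 0.0557, 0.75, 11.2 and 1.66 FPKM (-2.20). EGR1, an immediate early transcription factor, stood at 24.9, 13.8, 16.3, 25.5 and 9.53 FPKM (-1.33), and the WT libraries differed as much, at 11.8 and 3.26. SLCO4C1, PCOLCE2, CA6 and RHOU made up the rest, with log2 differences from -1.57 to -1.31.

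Genes by which cells sense and clear RA stood among these low ones. Retinoic acid receptors bind paired repeats near their target genes as dimers with RXR, and the receptor gene RARB and the RA hydroxylases CYP26A1 and CYP26B1 are well-known targets. RARB (chromosome 3, 25190893 to 25614424, hg18) stood at 0.156, 0.139, 1.07, 7.51 and 1.66 FPKM (-1.68). CYP26A1 (chromosome 10, 94823222 to 94827637) stood at 0.0396, 0.0178, 2.49, 37.4 and 14.2 FPKM (-1.34), and CYP26B1 at 0.0444, 0.0635, 6.21, 17.6 and 5.85 (-1.44). For RARB and CYP26A1 the combination lay between the RA doses, and for CYP26B1 just below the lower dose.

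The promoter of RARB is shown because it holds the classical element of this response. The stretch lies at chr3:25428170-25428262 of GRCh38.p14, plus strand, from RefSeq, and ends 1 base before the annotated start. Capitals mark the retinoid direct repeat with 5 bases between its 2 copies, at -53 to -37 from the start.
RARB: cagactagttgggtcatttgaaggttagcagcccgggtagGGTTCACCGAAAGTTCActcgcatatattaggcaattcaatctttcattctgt
Of 27305 RefSeq promoter windows, 250 bases before to 50 after a start, 22 hold this repeat on either strand (0.0806%). Among the 47 lower genes 34 have a window, and RARB is the 1 match. None of the 232 higher genes with a window holds it, which says only that these letters are not in those windows.

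Most other genes of the retinoid response stayed within 2-fold. In the list of 26 retinoid genes 20 were tested, of which 2 were higher (10%) and 3 lower (15%). Of all tested genes 3.37% were higher and 0.476% lower. The list had a median of 0.08 against -0.02 over all genes. TGM2, the transglutaminase that RA raises in these cells, stood at 0.0609, 0.132, 78.5, 322 and 223 FPKM (-0.53). DHRS3, a retinal reductase, stood at 1.14, 1.95, 50.0, 95.2 and 104 (0.13). PRAM1, an adaptor protein, stood at 7.18, 12, 231, 298 and 339 (0.19). The combination thus reached the level of the high dose for DHRS3 and PRAM1 and stayed between the doses for TGM2. The RARA gene was listed at 13.7 FPKM in RA 1 uM and 24.0 in the combination (0.76), and the part of the PML-RARA fusion in these values was not tested. Of the 2 genes higher in the combination TNFAIP2 differed most (4.50, 4.79, 135, 106 and 288 FPKM, 1.43).

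Genes of granulocyte maturation mostly lay above their level in RA 1 uM. Of 23 tested receptors and adhesion molecules of maturing granulocytes 12 were 2-fold higher (52.2%, against 3.37% of all tested genes) and 0 lower. Above 0 lay 22 of the 23, against 47.1% of all tested genes. Their median was 1.06 (0.58 with 5 FPKM as the pseudocount, 0.71 without a filter and 0.667 from 5 FPKM). The same list differed by a median of 0.66 between the WT libraries and 0.43 between the KO libraries. ITGAM, the integrin CD11b used as a maturation marker (chromosome 16, 31176008 to 31301819), stood at 2.68, 13.9, 22.9, 42.5 and 136 FPKM (1.66). ICAM1, an adhesion ligand, stood at 10.6, 28.7, 425, 594 and 1854 FPKM (1.64). The chemoattractant receptors FPR2 (0.806 in RA 1 uM and 6.53 in the combination, 2.06), C5AR1 (1.42 and 8.70, 2.00) and FPR1 (0.223 and 3.67, 1.93) were the largest of the 12. ITGB2, the partner of ITGAM on the cell surface, stood at 346 FPKM in RA 1 uM and 416 in the combination (0.27). For ITGAM and ICAM1 the order of the 5 libraries was the same, with DMSO lowest, then MC_2580, RA 0.01 uM and RA 1 uM, and the combination on top.

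The phagocyte NADPH oxidase makes the oxidative burst and is a main product of RA treatment in NB4 cells. None of its 9 tested genes was 2-fold apart, and the median was 0.13. NCF1, a cytosolic subunit, stood at 2.72, 5.48, 929, 1305 and 2245 FPKM (0.78), and CYBB, the catalytic subunit, at 10.7, 19.2, 112, 201 and 329.9 (0.71). CYBA, the membrane partner of CYBB, was 601 FPKM in RA 1 uM and 549.8 in the combination (-0.13). NCF1 has close pseudogene copies, which makes its level uncertain.

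Granule genes went both ways. Of 15 tested primary granule genes 1 was higher (6.67%), LYZ, and 4 lower (26.7%), the 3 alpha-defensins and the protease gene PRTN3. Of all tested genes 3.37% were higher and 0.476% lower. The median of the 15 was -0.28 (-0.32 between the WT libraries). PRTN3 stood at 178, 219, 762, 966 and 454 FPKM (-1.09). MPO, myeloperoxidase, was 1 of 10 that did not reach 2-fold (0.23). Of 6 tested genes of secondary and tertiary granules 2 were higher, HP and the gelatinase MMP9 (28.9, 53.6, 25.6, 28.5 and 78.2 FPKM, 1.42), and 0 lower. Of 14 S100 and annexin genes 5 were higher (35.7%) and 0 lower, with a median of 0.60 (0.15 and 0.06 between like libraries). S100A8, which forms calprotectin with S100A9, stood at 0.921, 4.71, 105, 126 and 419.5 FPKM (1.73), and S100A9 at 2.44, 17.1, 369, 430.1 and 885 (1.04). ANXA2, a membrane-binding annexin, stood at 31.9, 76.6, 9.15, 8.84 and 33.3 FPKM (1.8), lower at both RA doses than in DMSO, near DMSO in the combination and highest in MC_2580.

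Monocyte and macrophage genes were among the lists farthest from 0. Of 18 tested 9 were higher (50%, against 3.37% of all tested genes) and 0 lower. Their median was 0.95 (0.32 and 0.27 between like libraries), which was 0.57 with 5 FPKM as the pseudocount. FCN1, the lectin ficolin of monocytes, stood at 9.72, 11.5, 20.2, 13.6 and 114 FPKM (2.98). CTSB, a lysosomal protease, stood at 20.2, 30.9, 15.8, 23.9 and 138 (2.49), and MNDA, a nuclear protein of myeloid cells, at 68.7, 109, 113, 127 and 459 (1.84). LY96, which binds lipopolysaccharide together with TLR4, was listed at 0 in RA 1 uM and stood at 4.06 FPKM in MC_2580 and 7.42 in the combination. CTSD, another lysosomal protease, was 411 FPKM in RA 1 uM and 358 in the combination (-0.20). CD14 failed in this pair, and the scavenger receptor genes CD163, MRC1 and MSR1 did not reach 1 FPKM in either library.

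Receptors of innate sensing followed. Of 15 tested Toll-like receptor genes and adaptors 6 were higher (40%, against 3.37% of all tested genes) and 0 lower. Their median was 0.63 (0.14 and 0.22 between like libraries). That median fell to 0.31 with 5 FPKM as the pseudocount and to 0.18 without a filter on low values, near the level between like libraries. TLR1 stood at 1.76, 4.59, 0.907, 1.94 and 13.9 FPKM (2.34), AIM2, a sensor of cytosolic DNA, at 0.0241, 0.355, 0.0825, 0.296 and 8.74 (2.91), and the adaptor MYD88 at 8.78, 10.8, 10.2, 18.0 and 58.1 (1.64). TLR4, the receptor for lipopolysaccharide, was 8.92 FPKM in RA 1 uM and 6.48 in the combination (-0.41). Of 16 chemoattractant and Fc receptor genes 7 were higher (43.8%, against 3.37% of all tested genes) and 0 lower. Their median was 0.61 (0.34 and 0.16 between like libraries). FPR2, C5AR1 and FPR1 are among the 7 and were already counted with the granulocyte receptors. Also among them are CXCR4 (61.7, 93.7, 86.4, 113 and 366 FPKM, 1.69) and the Fc receptor chain FCER1G (14.8, 29.4, 19.0, 30.1 and 111, 1.84). CCR1 was 44.7 FPKM in RA 1 uM and 40.3 in the combination (-0.15).

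Interferon response genes mostly lay above 0, by less than they differed between the WT libraries. Type I and II interferons act through transcription factors such as IRF9 on elements of repeated GAAA letters. Of 40 tested genes 11 were 2-fold higher (27.5%, against 3.37% of all tested genes) and 0 lower. Above 0 lay 37 of the 40, against 47.1% of all tested genes. Their median was 0.58, beside 0.81 between WT 1 and WT 2 and 0.36 between KO 1 and KO 2. OAS1, an activator of RNA decay, stood at 0.944, 2.69, 7.01, 14.4 and 88.6 FPKM (2.54). GBP1, a GTPase of antimicrobial defence, stood at 0.0227, 0.998, 0.246, 0.343 and 9.68 (2.99), and HERC5, the ligase for ISG15, at 5.79, 11.9, 1.89, 2.06 and 17.6 (2.60). IFIT1, an RNA-binding antiviral protein, stood at 3.38, 4.22, 1.59, 2.98 and 10.8 (1.56), and its locus in the table overlaps those of neighbouring family members, so its level is uncertain. ISG15 (41.7 FPKM in RA 1 uM, 61.8 in the combination, 0.55) and IRF1 (123 and 163, 0.40) did not reach 2-fold.

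Stretches of promoters from 4 of the 11 are shown because they hold the letters GAAANNGAAA that interferon response elements share, in capitals on either strand. They come from RefSeq, build GRCh38.p14, printed on the strand of the gene: CXCL10 at chr4:76023669-76023747 (minus), GBP1 at chr1:89065286-89065375 (minus), HERC5 at chr4:88456954-88457094 (plus) and IFIT1 at chr10:89392467-89392569 (plus).
CXCL10: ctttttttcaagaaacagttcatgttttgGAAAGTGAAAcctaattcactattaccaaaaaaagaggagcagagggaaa
GBP1: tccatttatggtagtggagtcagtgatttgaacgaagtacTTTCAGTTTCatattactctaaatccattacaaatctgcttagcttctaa
HERC5: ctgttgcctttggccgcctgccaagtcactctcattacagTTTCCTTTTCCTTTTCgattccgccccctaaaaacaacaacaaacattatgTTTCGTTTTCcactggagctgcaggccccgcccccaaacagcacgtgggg
IFIT1: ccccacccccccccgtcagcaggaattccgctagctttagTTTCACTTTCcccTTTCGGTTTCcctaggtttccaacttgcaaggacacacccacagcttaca
Of 27305 promoter windows 3.65% hold these letters on either strand, overlapping matches counted once per window, and of 8189 windows of tested genes 2.8%. Among the higher genes 20 of 232 with a window hold them (8.62%), and among the lower genes 1 of 34, CYP26A1. In the interferon list 6 of the 8 higher genes with a window hold them (75%) and 11 of the 23 that were not 2-fold apart (47.8%), so the letters are common in that list whether or not a gene differed. A match is a stretch of letters and not a measured site.

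Genes of the NF-kB pathway had the highest median of the 30 lists at a pseudocount of 1 FPKM, while with 0.1 FPKM monocyte genes stood higher (1.38 against 1.15). NF-kB dimers of REL, NFKB1, NFKB2 and their relatives drive inflammatory genes, among them those of their own inhibitors. Of 20 tested 12 were 2-fold higher (60%, against 3.37% of all tested genes) and 0 lower. All 20 lay above 0, against 47.1% of all tested genes. Their median was 1.1, but it was 0.92 between WT 1 and WT 2 and 0.30 between KO 1 and KO 2. BCL3, a nuclear cofactor of NF-kB (chromosome 19, 49943644 to 49955141), stood at 1.81, 2.93, 10.3, 8.83 and 58.2 FPKM (2.59), and BIRC3, an inhibitor of cell death, at 0.959, 1.86, 1.24, 2.48 and 14.3 (2.14). BCL2A1, a survival protein, stood at 7.04, 5.86, 211, 157 and 445 (1.5). The inhibitor genes NFKBIA (86.9 FPKM in RA 1 uM, 183 in the combination, 1.06) and TNFAIP3 (26 and 55, 1.05) were only just past 2-fold, and RELA, a subunit, was 37.8 and 40.6 (0.10). In the WT libraries BIRC3 stood at 1.8 and 0.331 FPKM and BCL3 at 1.38 and 0.925.

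The promoter stretch of BIRC3 is shown because it holds the kB consensus 2 times, in capitals, at chr11:102317245-102317398 of GRCh38.p14, plus strand, from RefSeq.
BIRC3: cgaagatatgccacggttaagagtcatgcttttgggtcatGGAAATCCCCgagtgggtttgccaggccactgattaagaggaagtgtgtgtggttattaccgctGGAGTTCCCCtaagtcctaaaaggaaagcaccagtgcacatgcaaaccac
The kB consensus was found on either strand in 5.72% of all windows, 6.45% of those of tested genes and 9.48% of those of the higher genes (22 of 232). In the NF-kB list 6 of 11 higher genes with a window hold it, BCL3, BIRC3, NFKBIA, NFKBIZ, REL and TNFAIP3, and 1 of 6 that were not 2-fold apart, NFKB1. The list was drawn up to hold targets of NF-kB, and 7 of its 17 windows hold the letters (41.2%). Whether the letters go with the difference was not tested.

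Chemokines and the interleukin 1 system held large differences of both signs. Of 19 tested 9 were higher (47.4%) and 1 lower (5.26%), CCL24, against 3.37% and 0.476% of all tested genes. Their median was 0.58 (0.83 and 0.73 between like libraries), which was 0.34 with 5 FPKM as the pseudocount and 0.37 without a filter. IL1B stood at 0.623, 2.20, 2.68, 4.02 and 24.4 FPKM (2.34). LTB, lymphotoxin beta, stood at 9.49, 19.0, 2.98, 3.88 and 38.8 (3.03), and TNF at 93.6, 107, 19.3, 22.8 and 104 (2.14). For TNF the combination stood at the level of DMSO and MC_2580 while both RA doses were lower. CCL2, a monocyte attractant, stood at 2.12, 2.46, 385, 854 and 519 FPKM (-0.72), between the RA doses. In the eicosanoid list of 7 tested genes PTGES was the 1 past 2-fold, and ALOX5AP, which serves leukotriene synthesis, was 808 FPKM in RA 1 uM and 1091 in the combination (0.43).

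**Figure D3:**
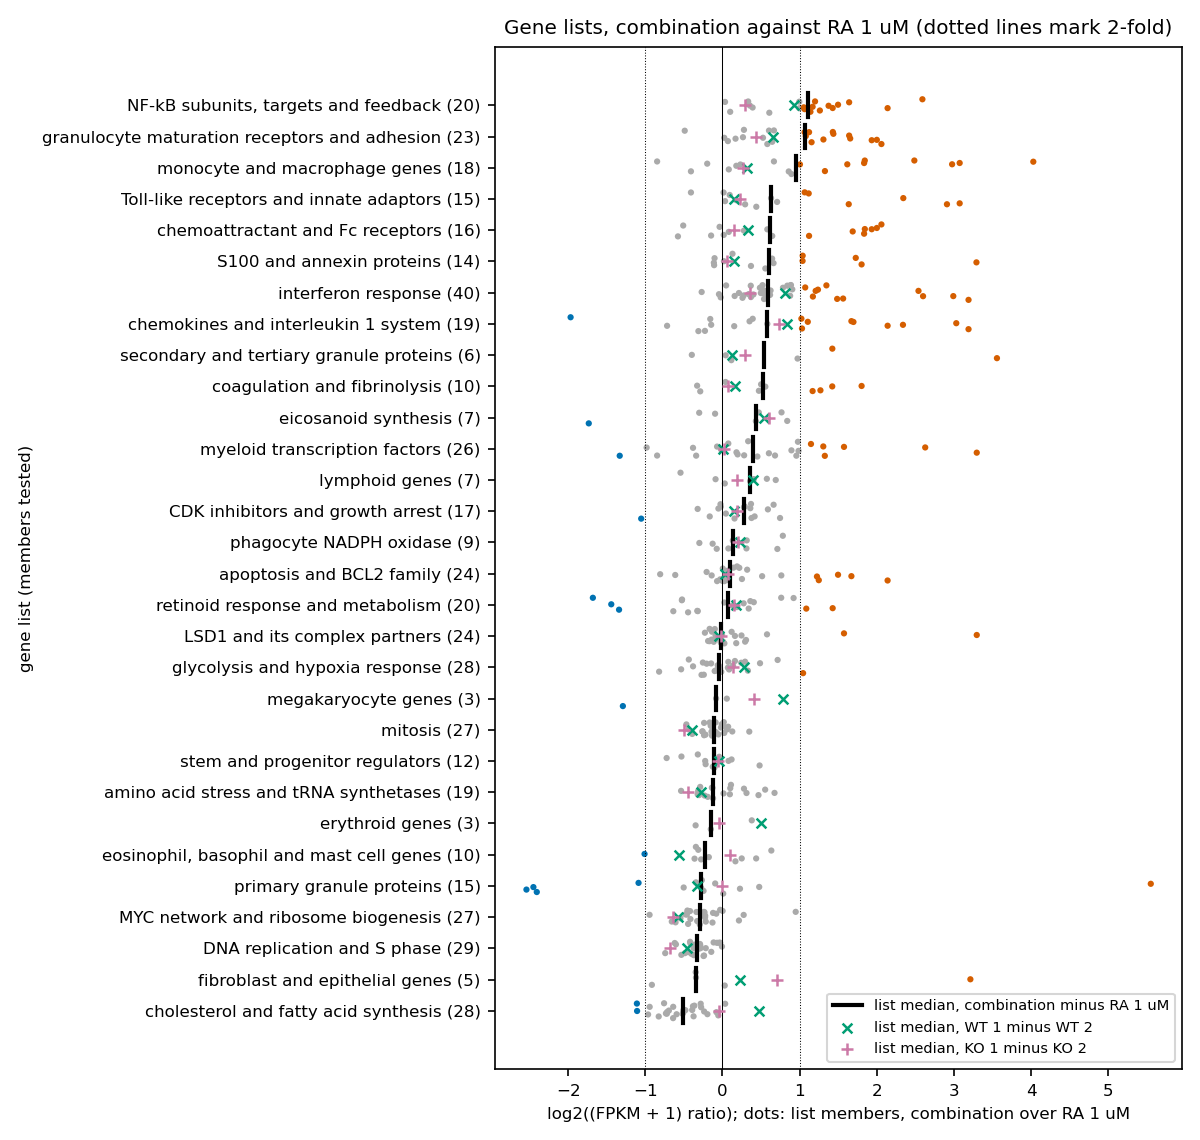
Log2 difference of (FPKM + 1) between the combination and RA 1 uM (x axis) for the tested members of 30 gene lists (dots, orange and blue past 2-fold), with the list median as a black bar and the median between like libraries of the knockout set as crosses. NF-kB genes, granulocyte receptors and monocyte genes have the highest medians (1.1, 1.06 and 0.95) and cholesterol genes the lowest (-0.51), and for NF-kB, interferon and chemokine genes the WT cross lies near the bar or beyond it.

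Of 26 tested myeloid transcription factors 6 were higher (23.1%) and 1 lower (3.85%), EGR1, against 3.37% and 0.476% of all tested genes. Their median was 0.39 (0.01 and 0.02 between like libraries), which was 0.24 with 5 FPKM as the pseudocount and 0.23 from 5 FPKM. The partners GFI1 and GFI1B were both among the 6. GFI1, the paralogue of GFI1B (chromosome 1, 92712907 to 92725021), stood at 67.1, 106, 41.4, 55.3 and 167 FPKM (1.57). IRF8, a regulator of the monocyte path (chromosome 16, 84490275 to 84513710), stood at 6.32, 16.3, 3.04, 4.58 and 33.5 (2.63), and ID1, an inhibitor of helix-loop-helix factors, at 0.226, 0.57, 52.0, 22.8 and 58.6 (1.33). GFI1 and IRF8 were lower at both RA doses than in DMSO and higher in MC_2580, whereas ID1 was near 0 without RA. SPI1, the master factor PU.1, was 262 FPKM in RA 1 uM and 259 in the combination (-0.02). The letters GAGGAAGT, which PU.1 is known to bind, are in 6.03% of the windows of the higher genes (14 of 232), 1 of 34 of the lower genes, PRTN3, and 2.78% of those of all tested genes, on either strand. CEBPE, a factor of late granulocytes, stood at 37.1, 52.2, 175, 341 and 262 (-0.38), and CEBPB at 5.36, 4.56, 172, 85.6 and 167 (0.96).

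The other subunits of the LSD1 complexes stayed within 2-fold. Of 24 tested genes of LSD1 and its partners GFI1 and GFI1B were the 2 past 2-fold, and the median was -0.01 (0.00415 after recentring and 0.0104 after quantile normalization). HDAC1 was 138 FPKM in RA 1 uM and 136 in the combination (-0.02), and RBBP7 145 and 132 (-0.14).

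No gene of DNA replication or mitosis reached 2-fold. All 29 tested replication genes lay below 0, at a median of -0.33 (28 of 29 after recentring or quantile normalization, where MCM3 lay just above 0), and 20 of 27 mitosis genes, at -0.10. The same lists differed by -0.46 and -0.40 between the WT libraries, that is, by more than between the treatments. PCNA, the sliding clamp of DNA polymerase, was 427 FPKM in RA 1 uM and 323 in the combination (-0.40), and CCNB1, the mitotic cyclin, 110.0 and 93.1 (-0.24). Of 27 genes of the MYC network and ribosome production 0 were past 2-fold and 23 lay below 0, with a median of -0.29 (-0.57 between the WT libraries). MYC stood at 319, 309, 135, 157 and 81.3 FPKM (-0.94), lower in the combination than at either RA dose. Of 17 growth arrest genes GADD45A was 2-fold lower (41.0 and 19.3 FPKM, -1.05) and 0 were higher, and CDKN1A was 3.12 and 5.20 (0.59).

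Cholesterol and fatty acid synthesis had the lowest median of the 30 lists. Of 28 tested genes 27 lay below 0, with a median of -0.51, while the same list stood at 0.47 between WT 1 and WT 2 and at -0.04 between KO 1 and KO 2. SCD, the stearoyl-CoA desaturase, stood at 337, 252, 350.2, 457 and 211 FPKM (-1.11), and FASN, the fatty acid synthase, at 90.1, 98.7, 109.8, 135 and 62.2 (-1.11). These 2 were the ones past 2-fold. INSIG1, which retains the sterol sensor in the endoplasmic reticulum, stood at 332, 251, 325, 313 and 160.0 (-0.96). For SCD, FASN and INSIG1 the combination was the lowest of the 5 libraries.

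The remaining lists differed in how many genes were past 2-fold. Of 24 apoptosis genes 5 were higher (20.8%, against 3.37% of all tested genes) and 0 lower. Their median was 0.10 (0.03 and 0.08 between like libraries). BIRC3 and BCL2A1 are among the 5 and were already counted in the NF-kB list. TNFSF10, the death ligand TRAIL, is another (4.19 FPKM in RA 1 uM, 15.5 in the combination, 1.67). In the coagulation list 4 of 10 were higher (40%) and 0 lower, with a median of 0.53 (0.17 and 0.07 between like libraries). Among the 4 are ANXA2, already counted with the annexins, and the protease inhibitor gene SERPINB2 (3.74 and 11.7, 1.42). VEGFA was the 1 of 28 glycolysis and hypoxia genes past 2-fold (34.7 and 72.6, 1.04), and of 12 stem cell and 19 amino acid stress genes 0 were. The lists of other cell types were mostly undetected. Only 3 of 16 erythroid, 3 of 13 megakaryocyte, 7 of 24 lymphoid and 5 of 14 fibroblast and epithelial genes with a usable value reached 1 FPKM in either library. Of 17 eosinophil, basophil and mast cell genes 10 did. In these lists VIM was 2-fold higher, and SELP, the adhesion molecule P-selectin of platelets (5.46 FPKM in RA 1 uM, 1.64 in the combination, -1.29), and CLC, a lectin of eosinophil crystals (4.51 and 1.74, -1.01), were 2-fold lower. The defining genes HBB, PF4, MS4A1 and COL1A2 were not among them. Summed FPKM in RA 1 uM and the combination were 152 and 121 for erythroid, 59.9 and 57.5 for megakaryocyte, 297 and 334 for lymphoid and 666 and 558 for eosinophil, basophil and mast cell genes. The fibroblast and epithelial sum went from 92.8 to 444.5, of which VIM alone makes up 42.7 and 404. The part of other cell types in any difference was not tested.

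The 332 higher genes were next read in libraries that took no part in the comparison. MC_2580 against DMSO had 71 genes 2-fold higher (0.733%) and 2 lower (0.0207%). Of the 71 genes 70 were tested between the combination and RA 1 uM. There 56 were 2-fold higher (80%), 0 lower and 64 above 0, at a median of 1.67. Over all 9865 genes tested there 3.37% were higher and 0.476% lower, at a median of -0.02. Both genes lower in MC_2580 lay below 0 in the combination, DEFA4 at -2.41 and the ring finger gene RNF39 at -0.55. Seen from the other side, 56 of the 270 higher genes that could be tested were also 2-fold higher in MC_2580 alone (20.7%), against 0.744% of all tested genes, and 214 were not. LYZ, PI16, LRRK2, CD48 and GLIPR1 are among the 56.

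RA 0.01 uM against DMSO had 479 genes higher (4.88%) and 273 lower (2.78%). Of those higher with the low dose 469 were tested in the comparison, where 59 were 2-fold higher (12.6%) and 16 lower (3.41%), at a median of 0.20. Of those lower with the low dose 231 were tested, where 51 were higher (22.1%) and 9 lower (3.9%), at a median of 0.18. Over all genes tested in the comparison 3.37% were higher and 0.476% lower, at a median of -0.02. Genes lower at the low dose than in DMSO and higher in the combination than in RA 1 uM include LYZ, CD48, GLIPR1, VIM, LTB and HERC5, and genes higher in both contrasts include GFI1B, BCL3, OAS1, IL1B and S100A8. The 16 higher at the low dose and lower in the combination include DEFA4, CCL24, PTGES, PXN and both CYP26 genes.

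**Figure D4:**
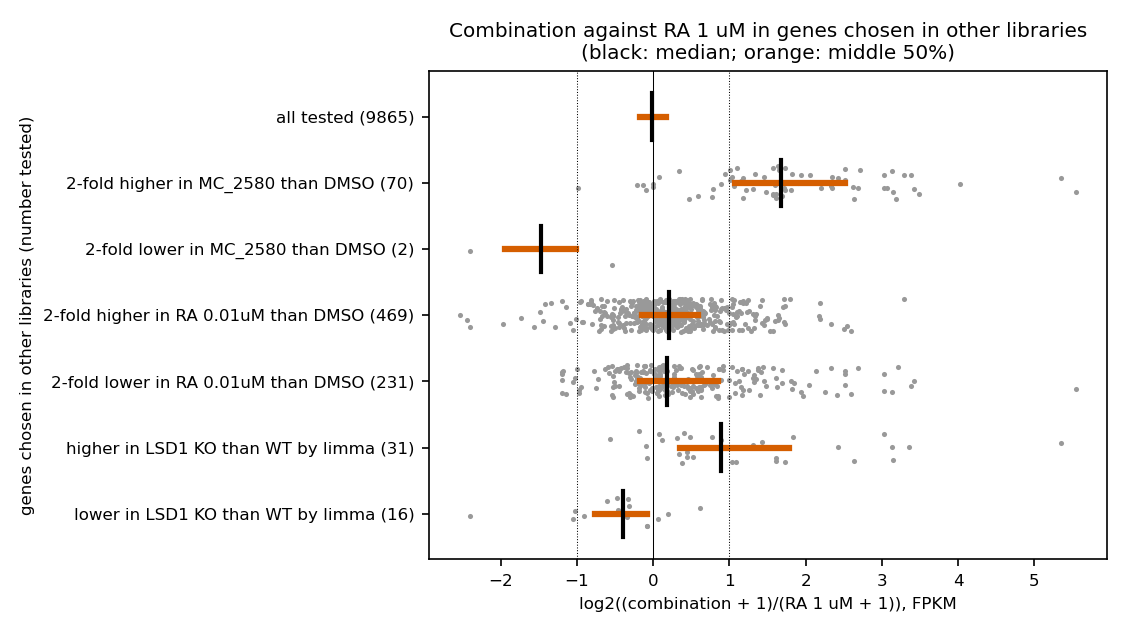
Log2 difference between the combination and RA 1 uM (x axis) for genes chosen in other libraries (grey dots, 1 gene each; black bar, median; orange bar, middle 50%), with all 9865 tested genes on top. Genes 2-fold higher in MC_2580 than in DMSO have a median of 1.67 and genes higher in LSD1 KO 0.89 (0.39 with 5 FPKM as the pseudocount), while genes 2-fold higher or lower at RA 0.01 uM than in DMSO have medians of 0.20 and 0.18.

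The knockout set gives a replicated contrast that shares no library with the treatments. Whether its replicates are separate cultures is not stated, so its p-values measure the spread between these samples. By limma 43 of 10063 genes were higher in KO (0.427%) and 16 lower (0.159%) at an adjusted p of 0.05. This fit did not pair like-numbered KO and WT libraries. With the replicate number as a block 1578 genes were higher in KO and 1408 lower. That fit called 160 of the 332 higher genes as higher in KO and 24 as lower, so these counts hang on the pairing. Of the 43, 31 were tested between the combination and RA 1 uM. There 15 were 2-fold higher (48.4%), 0 lower and 27 above 0. Genes such as PI16, GIMAP4 and CLEC5A passed the 1 FPKM filter only through the combination, with 0, 0.0109 and 0.326 FPKM in RA 1 uM. The filter thus favours a high share among the 31. The median of the 31 was 0.89 (0.39 with 5 FPKM as the pseudocount and 0.45 without a filter). Over all genes of that comparison 3.37% were 2-fold higher and 0.476% lower, at a median of -0.02. The 16 lower in KO were tested too, and there 0 were higher, 3 lower and 3 above 0, at a median of -0.40 (-0.25 with 5 FPKM as the pseudocount). The counts depend on the libraries kept: limma called 35, 46, 73 and 46 of the 332 higher genes as higher in KO without KO 1, KO 2, WT 1 or WT 2 in turn, instead of 15. In the same order it called 2, 1, 1 and 11 of them as lower in KO, instead of 0.

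Without a threshold, both KO libraries lay above both WT libraries for 144 of the 276 higher genes in the fit (52.2%) and below them for 23 (8.33%). Over all 10063 genes in the fit these shares were 18.6% and 16.9%. Of 31 lower genes in the fit 1 lay above and 17 below (54.8%). Among the 15 highest genes 12 were in the fit, of which 9 lay above with no overlap, and among the 15 lowest 6 were in the fit, of which 5 lay below.

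The 15 genes higher in both contrasts, named after their values were seen, include S100A9, CUX2, CLEC5A, IGSF3, RTN4RL2, S100A8, CCR2, STS, SIRPB2, CHST2, TMEM243 (C7orf23 in the table), SYTL3, GIMAP4 and PI16. PI16 was listed at 0 in both WT libraries and stood at 6.06 and 5.93 FPKM in KO (limma adjusted p = 0.0214). S100A8 stood at 0.63 and 1.23 FPKM in WT and 10.3 and 17.4 in KO, a log2 difference of 2.92 (SE 0.31, limma adjusted p = 0.0459). CLEC5A, an activating receptor of myeloid cells, stood at 1.25 and 1.22 in WT and 28.5 and 24.4 in KO, 3.61 (SE 0.18, limma adjusted p = 0.0214), and at 0.326 FPKM in RA 1 uM and 2.57 in the combination. The chemokine receptor CCR2 stood at 0.666 and 1.37 in WT and 10.1 and 10.3 in KO, 2.50 (SE 0.23, limma adjusted p = 0.0352). The 3 genes lower in both were DEFA4 (3.03 and 3.31 FPKM in WT, 0 and 0.141 in KO), the potassium channel KCNH2 and the beta-defensin DEFB1.

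LYZ was higher in both KO libraries (381 and 912 FPKM) than in WT (34.1 and 116), a log2 difference of 3.21 that did not pass (SE 0.71, limma adjusted p = 0.217). ITGAM, at 29.0 and 9.40 FPKM in KO against 6.82 and 1.25 in WT, did not pass either (2.07, SE 0.77, limma adjusted p = 0.534). For LYZ and ITGAM KO stood above WT in both like-numbered pairs, and this fit did not pair those libraries. VIM differed little, at 670.2 and 396 FPKM in KO against 563 and 356 in WT (0.20, SE 0.39, limma adjusted p = 0.969). RARB, CYP26A1, CYP26B1, PTGES and CCL24, which stood above DMSO under RA, were near 0 in KO and WT alike and did not enter the fit, and no RA was given there.

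**Figure D5:**
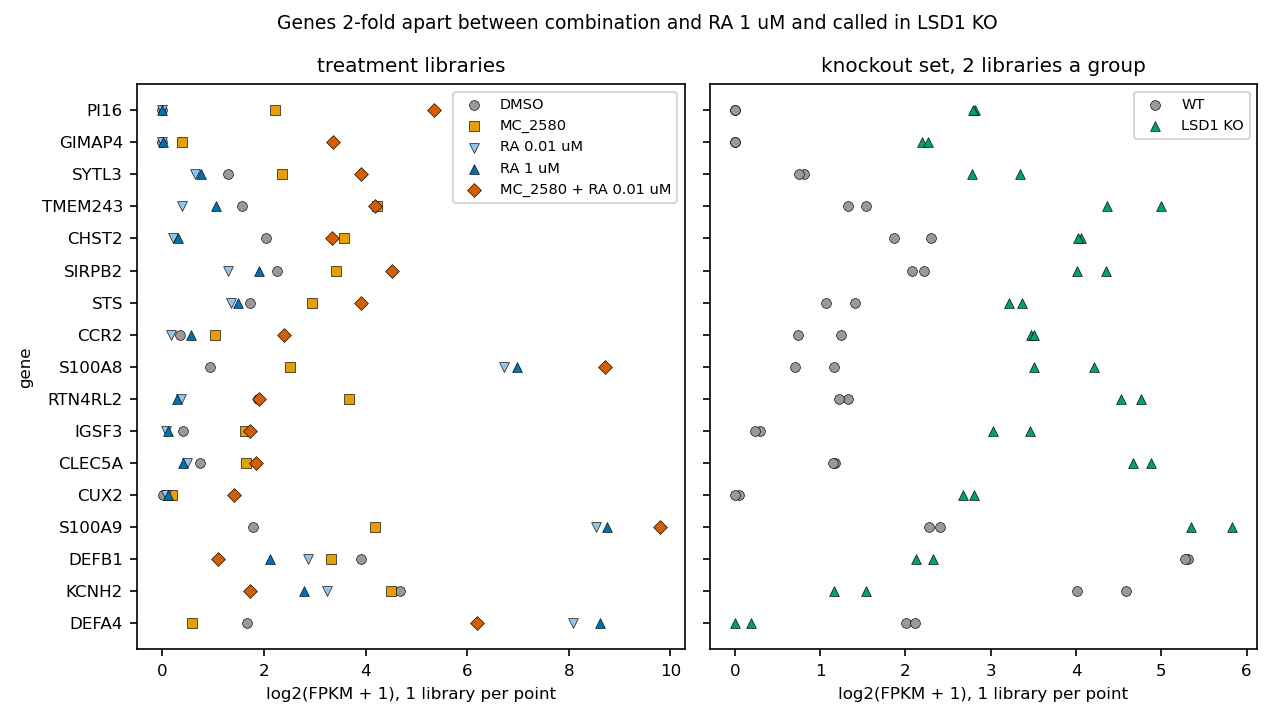
Expression (x axes, log2(FPKM + 1), 1 library per point) of 17 of the 18 genes that were 2-fold apart between the combination and RA 1 uM and passed in LSD1 KO against WT, in the 5 treatment libraries (left) and the 4 libraries of the knockout set (right). The 14 upper genes are higher in both KO libraries than in both WT libraries and the 3 lower ones, DEFB1, KCNH2 and DEFA4, are lower.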

How the data were processed

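RNA sequencing of NB4 cells gave 5 treatment libraries at 24 h and 4 untreated libraries, 2 LSD1 KO and 2 WT. Per the file headers, both deposited tables hold FPKM in a Cuffdiff layout. Per the file headers, the authors also deposited p-values, q-values and significance calls of 1 library against another, and fold changes, on a log2 scale in the knockout table and a natural log scale in the treatment table. Per the submitters' processing notes the tools were CASAVA 1.8, TopHat 1.3.1, TopHat2 2.0.10, Cufflinks and Cuffdiff with build hg18, without role or order. The sources used here give neither the annotation nor the scaling between libraries. The deposited q-values of the treatments, a score of the authors that reaches 1.44, were used only through the authors' calls. The 0.001 FPKM that the authors had added to each value of the knockout table was taken off. Starts count from 0 in the tables, and 1 was added.

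Rows with a failed status were dropped in the treatment table. Symbols were matched to RefSeq names and synonyms (20636 in the treatment table), and protein-coding genes with 1 locus on primary chromosomes were kept, 17491 and 17471 in the 2 tables. Treatments were compared by log2(FPKM + 1) without a test. For KO against WT, genes whose mean in either group reached 1 FPKM entered a limma fit (version 3.58.1, trend, R 4.3.3) of log2(FPKM + 1), with Benjamini-Hochberg adjustment. The fit was tested on simulated data. The other steps ran in Python 3.11.15 (numpy 2.4.6, pandas 2.3.3, matplotlib 3.10.9).

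The genes compared and the 30 gene lists (706 entries, 670 distinct genes, 654 entries with a usable value) were chosen with earlier results of these data known. Of the other entries 21 had a failed status and 521 entries in all passed the filter of 1 FPKM, so counts of list members cover these. Named genes are KDM1A, the 15 highest and 15 lowest differences where either library reached 5 FPKM, in each list up to 5 members past 2-fold and up to 3 with the highest FPKM, and a set of myeloid marker genes. Other genes are named after their values were seen. Some genes that these rules name are not reported here. The kB consensus and the retinoid repeat are searched with ambiguous letters. Alternatives were other pseudocounts, filters and scalings, the authors' calls, a replicate block and leaving out each KO or WT library. Depth is known only as a ratio between libraries, so no counting interval was computed.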

Additional observations from a re-analysis of the deposited data

How the results depend on the processing

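For the combination against RA 1 uM, 0.1 FPKM as the pseudocount gave 451 genes higher and 89 lower, 5 FPKM gave 150 and 16, and the authors' deposited table calls 237 and 26. Over all loci the authors' deposited table calls 368 higher and 111 lower. Recentring, quantile normalization and the filters left both counts within 1.5 times. No gene named as 2-fold apart and no list median of at least 1 changed sign under these alternatives. Values near 0 did, 9 of named genes (at most 0.076 in size), 4 list medians (at most 0.151) and the median of all genes, which was 0.00183 without a filter.

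List medians moved beyond the difference between like libraries in 11 of 180 cases. Those of myeloid transcription factors were 0.45 and 0.24 with a pseudocount of 0.1 and 5 FPKM, 0.31 without a filter and 0.23 from 5 FPKM. Those of monocyte genes were 1.38 and 0.57 with these pseudocounts. Toll-like receptor genes had 0.31 with 5 FPKM and 0.18 without a filter, secondary granule genes 0.0401 without a filter, and stem cell genes -0.18 under quantile normalization and -0.0314 without a filter. Genes higher in MC_2580 had medians of 2.45 and 1.14 with pseudocounts of 0.1 and 5 FPKM, both genes lower in MC_2580 -2.41 from 5 FPKM, where DEFA4 alone was left, and genes higher in KO 0.39 with 5 FPKM. These medians, and counts at 4-fold and above, were added after the data were seen. Of the genes named, 53 of 620 values moved by more than 1 SD between the WT libraries, all under another pseudocount.

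In the knockout set limma called 21 genes higher without a filter. The replicate number as a block gave 1578 higher and 1408 lower, and called 160 of the higher genes as higher and 24 as lower in KO. The differences KO 1 minus KO 2 and WT 1 minus WT 2 moved together (r = 0.86 over 9876 genes, which are not independent replicates). Per the file headers the authors compared like-numbered KO and WT libraries. There are only 2 such pairs, and no label tells what the number stands for. Without 1 library in turn limma called 94 to 244 genes higher and 37 to 121 lower, where the lone library is assumed to vary like the other group. Of the higher genes in the comparison 35 to 73 were then called higher in KO and 1 to 11 lower, and without a filter 5 were called higher. With 0.1 FPKM as the pseudocount 1 was called lower, beside 0 in the fit reported. At an unadjusted p under 0.05 that fit held 882 of 10063 genes.

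Depth limits low genes most, and the 1 library behind each treatment limits every difference.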
